A study of Homo sapiens with 12 samples.

Results

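The 10 genes described here are the interleukins of the HT1376 bladder cancer cell, with a soluble antagonist and a receptor chain that present or neutralise them: IL1A, IL1B, IL18, IL18BP, IL6, IL11, IL7, IL15, IL15RA and IL32. They were chosen by gene symbol, and each matched 1 row of the 60666 genes in the count table. RNA-seq counts were measured in 12 libraries of HT1376, in 4 groups of 3 numbered 11, 12 and 13. HT1376 CT, labelled WT, carries a CRISPR guide to luciferase, and HT1376 FOXP3 KO carries guides to exon 2 of FOXP3. Cells of each line were either left untreated, labelled UTR, or stimulated with 100 ng/mL IFNγ for 48 hours. Each line is a single-cell clone, so the knockout and other differences between the clones cannot be told apart. The labels do not say that the libraries of a group come from separate cultures, and p-values then measure the spread between these libraries, which may be technical.

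Interleukins are secreted or membrane-held proteins with which cells signal to immune cells and to each other. IL-1α (IL1A), IL-1β (IL1B) and IL-18 belong to the IL-1 family, which signals through MYD88 and NF-κB. IL-1β and IL-18 are made as precursors that caspase-1 can cleave, and the IL-18 binding protein (IL18BP) captures mature IL-18. IL-6 and IL-11 signal through gp130 and STAT3, while IL-7 and IL-15 use the common γ chain and sustain lymphocytes. IL-15 is shown to lymphocytes by the IL-15 receptor α chain (IL15RA) on the producing cell. IL-32 is a proinflammatory cytokine of human epithelial and lymphoid cells. IFNγ acts through the JAK kinases, with target genes that often carry GAS elements, and through interferon regulatory factors, which bind ISRE elements.

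The libraries held 4490684 to 39270042 counts. The shallowest was HT1376 CT with IFNγ replicate 12, in which 3 counts amount to 0.668 CPM (library-scaled counts), so low genes are least precise there. FOXP3 had at most 3 counts in a library and was at 0 in 8 of 12, so the targeted gene gave no check of the labels. The 6 epithelial markers summed to 3821 to 4929 CPM in the 12 libraries. In each condition 1 of them was called higher in the knockout line, KRT7, and 2 lower, EPCAM and CDH1. EPCAM averaged 84.9 CPM in untreated HT1376 CT and 22.3 CPM in untreated HT1376 FOXP3 KO, and KRT7 643 and 1234 CPM. Of 12 haematopoietic markers, CD2, MS4A1, CD68 and NKG7 were at 0 throughout, and the leukocyte antigen PTPRC averaged 0.165 to 0.803 CPM in the groups. The list summed to 4.67 to 8.66 CPM in HT1376 CT and to 77.1 to 234 CPM in HT1376 FOXP3 KO, nearly all of it CSF1R, which averaged 2.0 CPM in untreated HT1376 CT and 154 CPM in untreated HT1376 FOXP3 KO. The 5 fibroblast markers summed to 24.5 to 62.9 CPM in HT1376 CT and to 443 to 704 CPM in HT1376 FOXP3 KO. In each condition 4 fibroblast markers were called higher in the knockout line and 1 lower, COL1A1, at 28.7 against 7.80 CPM untreated. Of the haematopoietic markers, 6 tested untreated and 7 with IFNγ, 1 was called higher, CSF1R, and 2 lower in each condition. Of all genes tested, 14.0% were called higher and 18.2% lower untreated, and 13.2% and 15.7% with IFNγ. Some genes of these lists differed between the lines, as did several interleukins below, and their part in those differences was not tested.

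Promoter windows of 300 bases, 250 before and 50 after a RefSeq start (GRCh38.p14), were given for 7 of the 10 genes, in 15 windows. IL7, IL15 and IL18 had no window. The motifs searched, on both strands, were GAS (TTCNNNGAA), the ISRE core (GAAA, any 2 bases, GAAA) and a forkhead motif (TAAACA). GAS was found in 3 of the 15 windows and in 7.66% of all 35116 windows of 300 bases. The ISRE core was in 1 of 15 windows and in 3.57% of all, and the forkhead motif in 0 of 15 and in 12.3% of all. Below are the windows with a match, and a window of IL32, the gene with the highest IFNγ level, which had none. Capitals mark matches, and no matches overlapped.
IL18BP, 1 of 4 starts, chr11:71999367-71999666, plus strand: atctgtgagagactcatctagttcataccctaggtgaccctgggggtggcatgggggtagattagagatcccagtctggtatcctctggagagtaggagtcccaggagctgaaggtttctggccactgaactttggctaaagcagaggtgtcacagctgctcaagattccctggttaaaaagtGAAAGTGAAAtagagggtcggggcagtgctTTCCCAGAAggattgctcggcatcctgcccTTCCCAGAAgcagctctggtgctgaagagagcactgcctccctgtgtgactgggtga
IL15RA, the most upstream of 4 starts, chr10:5977997-5978296, minus strand: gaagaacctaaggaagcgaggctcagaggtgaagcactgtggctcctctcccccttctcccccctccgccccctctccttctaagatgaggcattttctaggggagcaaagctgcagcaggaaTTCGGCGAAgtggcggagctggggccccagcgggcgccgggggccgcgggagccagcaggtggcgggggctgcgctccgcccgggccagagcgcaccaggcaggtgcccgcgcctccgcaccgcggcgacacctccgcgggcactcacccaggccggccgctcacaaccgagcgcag
IL1B, chr2:112836730-112837029, minus strand: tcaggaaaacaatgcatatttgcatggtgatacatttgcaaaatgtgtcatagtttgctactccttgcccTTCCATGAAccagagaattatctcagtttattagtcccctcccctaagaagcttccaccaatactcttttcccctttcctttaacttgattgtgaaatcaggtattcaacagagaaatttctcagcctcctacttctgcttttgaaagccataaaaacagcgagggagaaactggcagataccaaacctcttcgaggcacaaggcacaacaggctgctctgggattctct
IL32, the more upstream of 2 starts, chr16:3065153-3065452, plus strand: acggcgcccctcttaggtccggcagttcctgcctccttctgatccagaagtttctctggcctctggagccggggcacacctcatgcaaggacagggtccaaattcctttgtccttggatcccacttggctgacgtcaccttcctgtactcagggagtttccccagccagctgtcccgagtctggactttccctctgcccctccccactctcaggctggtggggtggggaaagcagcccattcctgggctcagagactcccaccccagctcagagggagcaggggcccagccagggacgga
In the IL18BP window the ISRE core lies at bases 184 to 193 and GAS at bases 214 to 222 and 244 to 252, counted from the 5′ end. GAS lies at bases 124 to 132 of the IL15RA window and at bases 71 to 79 of the IL1B window. A match is a description of letters and was not tested as a site.

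All levels below are normalized CPM (TMM scaling over the 12 libraries), given for replicates 11, 12 and 13 in that order. Fold changes are those of edgeR's quasi-likelihood test, with p-values adjusted by Benjamini-Hochberg over all genes tested and called under 0.05.

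In HT1376 CT, IFNγ raised IL32, IL7, IL15RA, IL15 and IL18BP. All 10 genes were tested, 5 rose and 0 fell. Of all 24416 genes tested, 3.53% rose and 1.82% fell. The median log2 fold change was 1.40 over the 10 genes and -0.02 over all genes tested. At an unadjusted p under 0.05, 5 members were higher and 0 lower, and DESeq2 called 5 and 0. Over all 24416 genes, 4316 had an unadjusted p under 0.05 in either direction, and DESeq2 called 1132 higher and 661 lower. IFNγ treatment of HT1376 FOXP3 KO raised IL32, IL15RA and IL15: 3 of the 9 members tested rose and 0 fell, against 0.978% higher and 0.00414% lower of 24131 genes. There 5 were higher and 0 lower at an unadjusted p under 0.05, and DESeq2 called 3 and 0. Over all 24131 genes, 1295 had an unadjusted p under 0.05, and DESeq2 called 331 higher and 11 lower. The median was 0.65 over the 9 members tested and -0.01 over all genes.

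**Figure D1:**
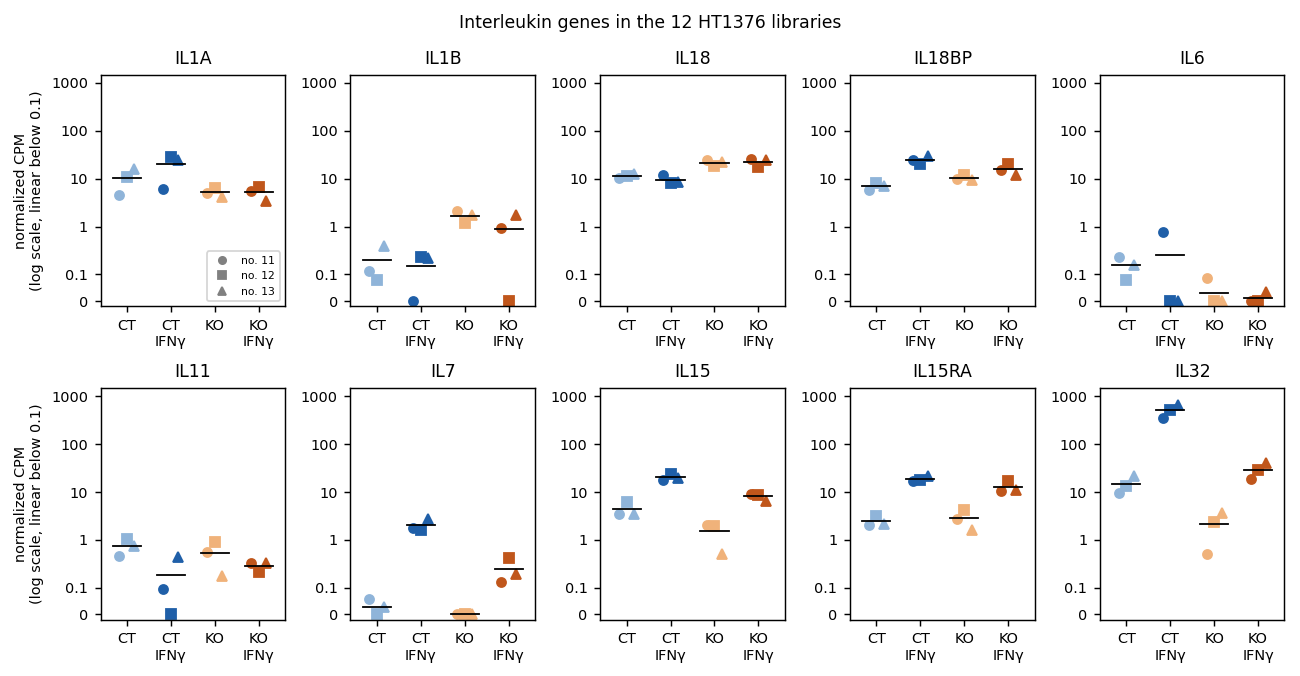
Normalized CPM of each gene (vertical axis, log scale that is linear below 0.1) in the 4 groups (horizontal axis), with a point per library, its shape giving the replicate number, and a line at the mean of 3. IL32 was at 359 to 658 CPM in IFNγ-treated HT1376 CT, and IL7 was at 0 in each untreated HT1376 FOXP3 KO library.

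**Figure D2:**
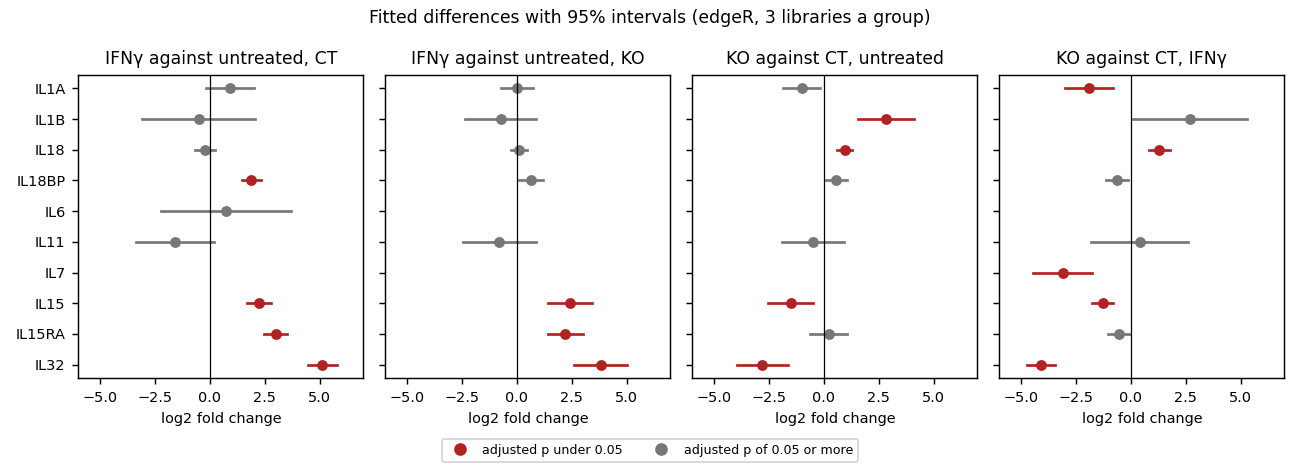
Fitted log2 fold change (horizontal axis) of each gene (rows) with its 95% interval in the 4 comparisons, from edgeR with 3 libraries a group. Red marks an adjusted p under 0.05, and genes with at most 3 counts in a whole group are left out. Called values with IFNγ lie between 1.89 and 5.13, all to the right of 0, while called differences between the lines lie on both sides of it.

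Among the IL-1 family ligands, IL1A (chr2:112773925-112784493, minus strand) encodes the alarmin IL-1α, which is active without cleavage by caspase-1. Untreated HT1376 CT had 4.55, 10.9 and 15.8 CPM and IFNγ-treated HT1376 CT 6.11, 29.1 and 24.8 CPM. The groups overlapped, although each IFNγ library was above the untreated library of the same number, by 0.42 to 1.41 on the log2 scale. The log2 fold change was 0.92 ± 0.51 (SE) with an adjusted p of 0.390. With the replicate number as a block, the adjusted p was 1.85e-06, a fit in which 8.67% of all genes were called higher. With the block and a bias-adjusted deviance it was 0.00506, where 8.51% were. HT1376 FOXP3 KO levels were 4.99, 6.54 and 4.21 CPM untreated and 5.49, 6.74 and 3.37 CPM with IFNγ, and the log2 fold change was -0.00 (95% interval -0.72 to 0.71, adjusted p 0.999).

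The lines differed in IL1A under IFNγ, where HT1376 FOXP3 KO was lower by a log2 fold change of -1.91 ± 0.49 (adjusted p 0.0129). One library of each line, replicate 11 of HT1376 CT at 6.11 CPM and replicate 12 of HT1376 FOXP3 KO at 6.74 CPM, overlapped. Without HT1376 CT IFNγ replicate 13 the adjusted p was 0.0718, and without HT1376 FOXP3 KO IFNγ replicate 13 it was 0.0513. Untreated, the log2 fold change was -1.0 ± 0.38 (adjusted p 0.0687). The replicate block gave 0.0180 there and 0.0419 with the bias-adjusted deviance as well, where 20.6% and 21.1% of all genes were called lower.

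IL1B (chr2:112829751-112836816, minus strand), the gene of the caspase-1 substrate IL-1β, was near the limit of detection in HT1376 CT. It had 0.117, 0.0795 and 0.394 CPM untreated and 0, 0.231 and 0.224 CPM with IFNγ. HT1376 FOXP3 KO had 2.11, 1.16 and 1.73 CPM untreated, above each untreated HT1376 CT library. IL1B was thus higher in the untreated knockout line by a log2 fold change of 2.83 ± 0.59 (adjusted p 0.00368). Of the 18 untreated control counts 15 lay in replicate 13, and without it the log2 fold change was 4.01 (adjusted p 0.00348). With IFNγ the knockout libraries spread from 0 in replicate 12 through 0.938 to 1.78 CPM, and the groups overlapped (log2 fold change 2.69 ± 1.17, adjusted p 0.113). Without that replicate 12 the log2 fold change was 3.18 with an adjusted p of 0.0170. Over the 6 libraries the replicate block gave an adjusted p of 0.0599, which was not called. With the bias-adjusted deviance added to the block it was 0.0279, where 16.6% of all genes were called higher. The IFNγ effect had wide intervals in both lines, from -3.07 to 2.05 in HT1376 CT and from -2.35 to 0.88 in HT1376 FOXP3 KO.

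IL18 (chr11:112143253-112164096, minus strand) was the steadiest of the family. HT1376 CT had 10.4, 11.4 and 12.3 CPM untreated and 12.2, 8.08 and 8.55 CPM with IFNγ. HT1376 FOXP3 KO had 24.5, 18.4 and 22.3 CPM untreated and 25.5, 18.0 and 25.1 CPM with IFNγ. Each knockout library was above each control library in the same condition. The knockout line was higher by a log2 fold change of 0.94 ± 0.16 untreated (adjusted p 0.00112) and of 1.29 ± 0.22 with IFNγ (adjusted p 0.00117). IFNγ itself gave a log2 fold change of -0.21 (95% interval -0.67 to 0.25) in HT1376 CT and of 0.10 (95% interval -0.28 to 0.47) in HT1376 FOXP3 KO.

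IL18BP (chr11:71998613-72007315, plus strand) encodes the secreted antagonist of IL-18. Its exons share 1031 bases with NUMA1 on the opposite strand, and the strand setting of the counting was not given in the sources used here, so its counts may hold reads of that gene. Levels in HT1376 CT went from 5.90, 7.95 and 7.04 CPM to 25.1, 20.5 and 29.8 CPM with IFNγ. These groups were far apart, with a log2 fold change of 1.89 ± 0.19 (adjusted p 9.26e-05). HT1376 FOXP3 KO went from 9.64, 12.1 and 9.22 CPM to 14.9, 20.8 and 12.1 CPM. There the groups just overlapped, each number was higher with IFNγ by 0.39 to 0.77, and the log2 fold change of 0.65 ± 0.24 had an adjusted p of 0.705. With the replicate number as a block the adjusted p was 0.000562, and 0.0113 with the bias-adjusted deviance as well, where 3.92% and 3.29% of all genes were called higher. Between the lines the log2 fold change of IL18BP was 0.57 ± 0.21 untreated (adjusted p 0.0581) and -0.64 ± 0.23 with IFNγ (adjusted p 0.0571). The replicate block gave 0.0278 untreated and 0.0116 with IFNγ, where 15.9% of genes were called higher and 17.9% lower. With the bias-adjusted deviance added to it the values were 0.0217 and 0.0347, where 17% were called higher and 19.7% lower. These differences of opposite sign were each under 0.05 in 5 of 8 other fits that used the 6 or 12 libraries, the 2 blocked fits included.

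The ratio of the antagonist to its ligand needs no scaling between libraries. In HT1376 CT there were 0.569, 0.700 and 0.572 IL18BP counts per IL18 count untreated, and 2.05, 2.52 and 3.48 with IFNγ. For HT1376 FOXP3 KO the ratio was 0.394, 0.656 and 0.415 untreated and 0.586, 1.15 and 0.482 with IFNγ. These counts are not per length. Per kilobase of exon, merged over all annotated transcripts, IL18 lay above IL18BP in HT1376 CT with IFNγ replicate 11, at 4.69 and 4.29 RPKM. The mean log2 ratio differed by 2.10 with IFNγ in HT1376 CT, where the groups did not overlap, and by 0.53 in HT1376 FOXP3 KO, where they did. Under IFNγ the knockout line was lower by -1.93 on the log2 scale without overlap. The exact two-sided permutation p was 0.1 for the IFNγ effect in HT1376 CT and for the lines under IFNγ, the smallest that 3 against 3 libraries can give, and 0.2 adjusted over the 12 ratio comparisons.

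**Figure D3:**
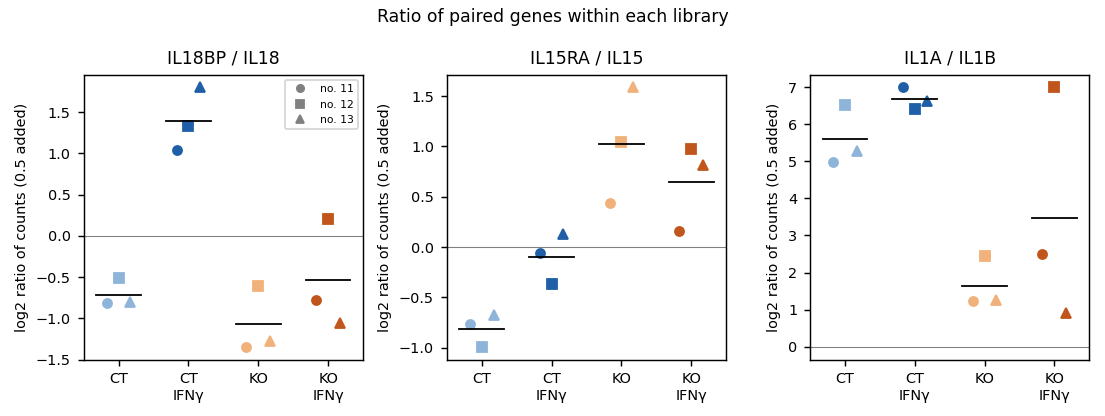
Log2 ratio of the counts of 2 genes in the same library, with 0.5 added to each count (vertical axis), in the 4 groups (horizontal axis). Points are libraries, shapes replicate numbers and lines means of 3, and IL18BP to IL18 reached 1.04 to 1.80 in IFNγ-treated HT1376 CT.

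IL1A and IL1B stood in very different proportion in the lines. Untreated HT1376 CT had 31.4, 91.7 and 38.7 IL1A counts per IL1B count with 0.5 added to each, and untreated HT1376 FOXP3 KO had 2.35, 5.44 and 2.41. The groups did not overlap, and the log2 ratio was lower by -3.94 in the knockout line (exact permutation p 0.1, adjusted 0.2). Under IFNγ the knockout replicate 12, with 0 IL1B counts, lay at 127 and overlapped HT1376 CT.

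IL6 (chr7:22725884-22732002, plus strand), the acute-phase cytokine, was hardly detected. HT1376 CT had 4, 1 and 6 counts untreated and 8, 0 and 0 counts with IFNγ, so replicate 11 held all 8. HT1376 FOXP3 KO had 2 counts in 3 untreated libraries and 1 count in 3 IFNγ libraries. Untreated, the ratio of the knockout to the control line was 0.238, with a 95% interval of 0.0256 to 1.09 that covers counting error only. With IFNγ it was 0.0738, with a counting interval of 0.00166 to 0.550, and rested on the 8 counts of that single control library. IL6 shares exonic bases with IL6-AS1 and STEAP1B on the opposite strand, and such reads cannot be told apart.

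IL11 (chr19:55364382-55370463, minus strand), the other gp130 ligand, had 0.467, 1.03 and 0.762 CPM in untreated HT1376 CT and 0.0970, 0 and 0.447 CPM with IFNγ. The IFNγ libraries were all below the untreated ones, but the log2 fold change of -1.59 ± 0.82 had an adjusted p of 0.353. The knockout line had 0.559, 0.896 and 0.173 CPM untreated and 0.335, 0.214 and 0.324 CPM with IFNγ, which overlapped. A difference in IL11 was not detectable at this depth in any of the comparisons, with adjusted p-values of 0.353 or more.

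IL7 (chr8:78675743-78805523, minus strand), a survival factor of naive T cells, had next to no counts without IFNγ. It had 1, 0 and 1 counts in untreated HT1376 CT and 0 counts in each untreated HT1376 FOXP3 KO library. With IFNγ it reached 1.75, 1.62 and 2.80 CPM in HT1376 CT, from 75 counts in all. The ratio to the 2 untreated counts was 78.1, with a 95% interval of 20.9 to 657 that covers counting error only, and the test gave an adjusted p of 0.000554. The knockout line had 0.134, 0.428 and 0.195 CPM with IFNγ, from 12 counts. That was at least 3.76-fold higher than 3 counts over the untreated group, with an adjusted p of 0.574. Under IFNγ the lines did not overlap, and HT1376 FOXP3 KO was lower by a log2 fold change of -3.11 ± 0.61 (adjusted p 0.00274). IL7 exons overlap ZC2HC1A on the opposite strand.

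IL15 (chr4:141636583-141733987, plus strand) supports natural killer and memory T cells. HT1376 CT had 3.50, 6.20 and 3.50 CPM untreated and 17.7, 23.3 and 19.8 CPM with IFNγ, a log2 fold change of 2.24 ± 0.25 (adjusted p 0.000214). HT1376 FOXP3 KO had 2.06, 1.97 and 0.519 CPM untreated and 9.24, 8.56 and 6.42 CPM with IFNγ, a log2 fold change of 2.43 ± 0.44 (adjusted p 0.0392). Neither pair of groups overlapped. The knockout line started lower and ended lower, by a log2 fold change of -1.51 ± 0.47 untreated (adjusted p 0.0302) and of -1.28 ± 0.22 with IFNγ (adjusted p 0.00117). The interaction was 0.18 (95% interval -0.87 to 1.24).

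The IFNγ call for IL15 in HT1376 FOXP3 KO was near the threshold in the fit without a block. With the replicate number as a block the adjusted p was 5e-22, and 4.10e-06 with the bias-adjusted deviance as well. In those fits 3.92% and 3.29% of all genes were called higher. Without a block, leaving out a library gave adjusted p-values of 0.0284 to 0.212, under 0.05 in 1 of 6 fits, that without untreated replicate 13. The untreated difference between the lines gave 0.0279 to 0.112. It was lost without replicate 11 (0.0517), 12 (0.112) or 13 (0.0603) of untreated HT1376 CT, or without replicate 13 of untreated HT1376 FOXP3 KO (0.0662).

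IL15RA (chr10:5943639-5978187, minus strand) encodes the chain that presents IL-15. HT1376 CT had 2.04, 3.10 and 2.18 CPM untreated and 17, 18 and 21.7 CPM with IFNγ, a log2 fold change of 3.0 ± 0.23 (adjusted p 9.10e-06). HT1376 FOXP3 KO had 2.80, 4.12 and 1.61 CPM untreated and 10.3, 16.9 and 11.3 CPM with IFNγ, a log2 fold change of 2.21 ± 0.35 (adjusted p 0.0180). IFNγ libraries lay above the untreated libraries of their line without overlap. In HT1376 FOXP3 KO the replicate block gave an adjusted p of 6.48e-29, and 6.10e-07 with the bias-adjusted deviance as well. In those fits 3.92% and 3.29% of all genes were called higher. Without a block, leaving out a library of HT1376 FOXP3 KO gave adjusted p-values of 0.00643 to 0.122. The call was lost without replicate 11 untreated (0.122) or with IFNγ (0.0556), or without replicate 13 untreated (0.0592) or with IFNγ (0.0572). Untreated, the lines overlapped (log2 fold change 0.22, 95% interval -0.62 to 1.07). With IFNγ the knockout libraries all lay just below the control libraries, by a log2 fold change of -0.53 ± 0.23 with an adjusted p of 0.104. In the blocked fits of this difference the adjusted p was 0.0257, and 0.0325 with the bias-adjusted deviance as well. Those fits called 17.9% and 19.7% of all genes lower.

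Receptor and ligand stood in different proportion in the lines. IL15RA counts per IL15 count were 0.587, 0.503 and 0.626 in untreated HT1376 CT and 0.962, 0.773 and 1.09 with IFNγ. For HT1376 FOXP3 KO they were 1.35, 2.07 and 3.0 untreated and 1.12, 1.97 and 1.76 with IFNγ. The knockout libraries were above the control libraries in both conditions, by 1.83 untreated and by 0.75 with IFNγ on the log2 scale (exact permutation p 0.1 and adjusted p 0.2 for each).

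IL32 (chr16:3065297-3082192, plus strand) was the most responsive member with replicated counts in each group. In HT1376 CT it went from 9.69, 13.4 and 21.2 CPM to 359, 529 and 658 CPM. The knockout line went from 0.516, 2.33 and 3.63 CPM to 18.6, 28.4 and 40.0 CPM. The log2 fold change with IFNγ was 5.13 ± 0.30 in HT1376 CT (adjusted p 8.44e-07) and 3.82 ± 0.54 in HT1376 FOXP3 KO (adjusted p 0.00786). Neither pair overlapped. IFNγ-treated HT1376 FOXP3 KO, at 18.6 to 40.0 CPM, lay at or above untreated HT1376 CT, at 9.69 to 21.2 CPM, with replicate 11 inside that range. The knockout line was lower by a log2 fold change of -2.81 ± 0.53 untreated (adjusted p 0.00197) and of -4.10 ± 0.29 with IFNγ (adjusted p 2.08e-06). Leaving out any 1 library kept the adjusted p of these 4 differences of IL32 at 0.0452 or less.

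Between the lines, 2 of 9 members tested were higher (IL1B, IL18) and 2 lower (IL15, IL32) in untreated HT1376 FOXP3 KO. Of 25320 genes tested, 14.0% were higher and 18.2% lower, so calls were common in this comparison. Under IFNγ, 1 of 9 was higher (IL18) and 4 were lower (IL1A, IL7, IL15, IL32), while 13.2% of 24388 genes were higher and 15.7% lower. Median log2 fold changes of the members were -0.50 untreated and -0.64 with IFNγ, beside -0.02 and 0.02 over all genes. The comparisons share libraries and are not independent of each other.

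Whether IFNγ acted unequally in the lines was tested by the interaction of line and IFNγ over 12 libraries. By edgeR without a block, 0 of 10 members were called, and 1 had an unadjusted p under 0.05, IL18BP. DESeq2 called IL18BP lower (adjusted p 0.0348), with 0.396% of all genes. Over all 27806 genes edgeR called 0.00360% higher and 0.108% lower, and 1727 had an unadjusted p under 0.05 in either direction. The interaction was -1.25 ± 0.31 for IL18BP (adjusted p 0.248), -1.29 ± 0.62 for IL32 (adjusted p 0.818) and -0.95 ± 0.69 for IL1A (adjusted p 0.910), a smaller fitted IFNγ effect in HT1376 FOXP3 KO in each. With the replicate number as a block within each line, the adjusted p was 3.17e-07 for IL18BP, 7.97e-10 for IL32 and 0.0216 for IL1A, in a fit that called 2.06% of all genes lower. With the bias-adjusted deviance added, this block called 1.47% lower. There IL18BP (-1.36, adjusted p 0.000202) and IL32 (-1.27, adjusted p 0.0131) were called and IL1A was not. IL15RA had -0.79 ± 0.42 without a block (adjusted p 0.855). With this block its adjusted p was 0.0982, and 0.141 with the bias-adjusted deviance as well.

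Levels were compared between genes per kilobase of exon (RPKM, from the normalized CPM and the exonic bases of each gene). Exonic bases were merged over all annotated transcripts of a gene, so orders and shares depend on that choice of length. In untreated HT1376 CT the order began with IL1A at 5.16 ± 2.79 RPKM (SD, n = 3), IL32 at 4.59 ± 1.83 and IL18 at 4.36 ± 0.37, which lay within each other's spread. IL18BP followed at 1.19 ± 0.18, then IL15RA at 0.672 ± 0.158 and IL15 at 0.559 ± 0.198, which overlapped. IL11 had 0.282, and IL1B, IL6 and IL7 had 0.0654 or less. With IFNγ the order became IL32 at 161 ± 46.7 RPKM, far above IL1A at 9.92 ± 6.06, IL15RA at 5.2 ± 0.68, IL18BP at 4.30 ± 0.79, IL18 at 3.69 ± 0.87 and IL15 at 2.57 ± 0.36. IL1A and its next 3 neighbours lay within their spread. IL32 thus made up 27.1% of the summed RPKM of the 10 genes without and 85.9% with IFNγ.

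In untreated HT1376 FOXP3 KO, IL18 led at 8.34 ± 1.17 RPKM, or 55.2% of the sum, before IL1A at 2.60 ± 0.59, IL18BP at 1.76 ± 0.27, IL15RA at 0.783 ± 0.345, IL32 at 0.673 ± 0.488 and IL1B at 0.554 ± 0.158. The last 3 overlapped. With IFNγ, IL32 at 9.04 ± 3.33 RPKM and IL18 at 8.78 ± 1.63 were level, at 32.1% and 31.2% of the sum. IL15RA at 3.53 ± 0.98, IL18BP at 2.72 ± 0.75 and IL1A at 2.58 ± 0.84 came next within each other's spread. IL18 and IL32 differed beyond their spread in IFNγ-treated HT1376 CT, where IL32 was higher, and in untreated HT1376 FOXP3 KO, where IL18 was.

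**Figure D4:**
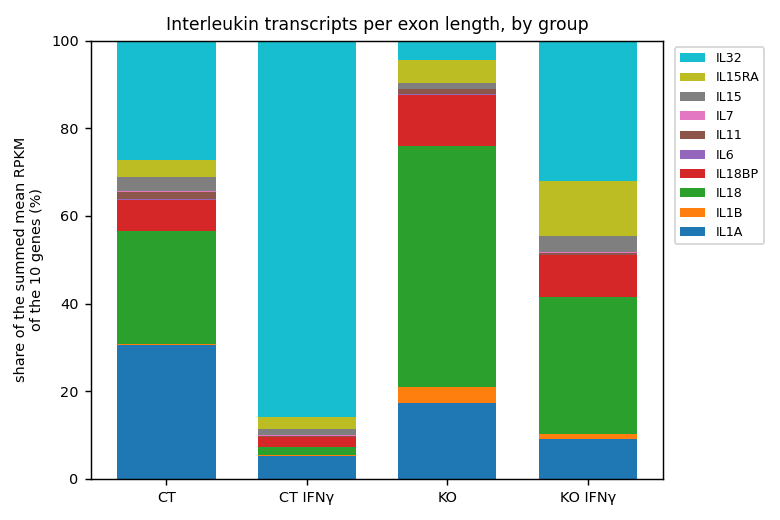
Share of each gene in the summed mean RPKM of the 10 genes (vertical axis, percent) in the 4 groups (horizontal axis), each bar made of means over 3 libraries. IL32 takes 85.9% in IFNγ-treated HT1376 CT, and IL18 takes 55.2% in untreated HT1376 FOXP3 KO.

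Of the 11 receptor chains that bind the members or pair with such chains, 2 of 10 tested rose with IFNγ in HT1376 CT, IL18R1 and IL7R, and 0 fell, beside 3.53% and 1.82% of all genes. IL18R1, the ligand-binding chain for IL-18, went from 0.616 ± 0.315 to 4.15 ± 0.80 CPM (log2 fold change 2.63 ± 0.44, adjusted p 0.00390). Its partner IL18RAP had 0 counts in 3 groups and 4 counts in 1 library of IFNγ-treated HT1376 CT. IL7R had 1 count in untreated HT1376 CT and 42 with IFNγ (adjusted p 0.00672). IL2RB and IL2RG, shared chains of the IL-15 receptor, averaged 1.585 CPM or less in each group. With IFNγ in HT1376 FOXP3 KO, edgeR and DESeq2 called 0 of 10, and IL18R1, IL7R, IL2RG and IL11RA had an unadjusted p under 0.05. Of all 24131 genes, 1295 had an unadjusted p under 0.05.

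Between the lines, 6 of 9 receptor chains were lower in untreated HT1376 FOXP3 KO and 0 higher, beside 18.2% and 14.0% of all genes. IL1R2, the decoy receptor that captures IL-1 without signalling, averaged 286 ± 100 CPM in untreated HT1376 CT and 1.48 ± 0.82 CPM in untreated HT1376 FOXP3 KO, a log2 fold change of -7.70 ± 0.43 (adjusted p 3.56e-07). The signalling receptor IL1R1 (-0.82 ± 0.25, adjusted p 0.0284) and its partner IL1RAP (-0.55 ± 0.13, adjusted p 0.00626) were lower by less. IL6R was lower by -1.25 ± 0.29 (adjusted p 0.00713), IL2RB by -1.52 ± 0.48 (adjusted p 0.0339) and IL18R1, with 2 counts in the knockout group, was called lower too (adjusted p 0.0126). IL6ST, which encodes gp130, had -0.39 ± 0.15 with an adjusted p of 0.0630. Under IFNγ, IL1R2 (-7.51), IL18R1 (-3.46) and IL6R (-1.36) were lower and IL11RA (0.85 ± 0.29, adjusted p 0.0492) was higher. These were 3 lower and 1 higher of 10, beside 15.7% and 13.2% of all genes. Median log2 fold changes of the list were -1.25 untreated and -1.11 with IFNγ, and -0.02 and 0.02 over all genes.

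Genes that process and release IL-1 family ligands moved with IFNγ and with the line. In HT1376 CT, 8 of 16 tested rose and 0 fell, beside 3.53% and 1.82% of all genes, and the median was 0.98 (-0.02 over all genes). AIM2, a DNA sensor that assembles an inflammasome, went from 4.91 to 301 CPM (log2 fold change 5.94 ± 0.17, adjusted p 1.75e-09). CASP1, the protease that cleaves IL-1β and IL-18, went from 13.5 ± 3.6 to 163 ± 12.9 CPM (3.63 ± 0.18, adjusted p 1.97e-07). CARD17, a caspase-1 inhibitor, rose by a log2 fold change of 2.65 ± 0.38, CASP4 by 1.54 ± 0.11 and CASP8 by 0.87 ± 0.12. In the knockout line 3 of 16 rose, beside 0.978% of all genes: AIM2 (4.51 ± 0.20), CASP4 (1.04 ± 0.12) and GSDMD (0.85 ± 0.14), the pore-forming gasdermin through which IL-1β can leave the cell. There 7 of the list were higher and 0 lower at an unadjusted p under 0.05, and DESeq2 called 5 and 0. Of all 24131 genes, 1295 had an unadjusted p under 0.05, and DESeq2 called 331 higher and 11 lower. None of these fits had a block. CASP1 in HT1376 FOXP3 KO had 1.48 ± 0.67 CPM untreated and 5.50 ± 1.71 CPM with IFNγ (log2 fold change 1.89 ± 0.39, adjusted p 0.0731). CASP8 had a log2 fold change of 0.49 there (adjusted p 0.536).

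Between the lines 11 of 16 genes of the list were lower and 1 higher in untreated HT1376 FOXP3 KO, beside 18.2% and 14.0% of all genes. With IFNγ 12 were lower and 1 higher, beside 15.7% and 13.2%, and the medians were -1.33 and -1.56. CASP1 was lower by a log2 fold change of -3.11 ± 0.34 untreated (adjusted p 4.49e-05) and of -4.81 ± 0.21 with IFNγ (adjusted p 8.67e-08). CASP4 was lower by -1.61 and -2.08, and CASP8 by -0.42 and -0.77, in the same order. CARD16 (-4.92 and -5.46) and the sensor NLRP1 (-4.55, untreated) were also among the most reduced, and GSDME (6.85 and 5.89) was the single gene that was higher. IL18 transcripts were thus higher, and those of CASP1 lower, in the same knockout libraries. By edgeR without a block, AIM2 was the only gene of the list called by the interaction test (-1.43 ± 0.25, adjusted p 0.0364). There 4 genes of the list were lower at an unadjusted p under 0.05, beside 1727 of all 27806 genes in either direction. DESeq2 called 2 lower, AIM2 and CASP1, beside 110 of all genes.

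**Figure D5:**
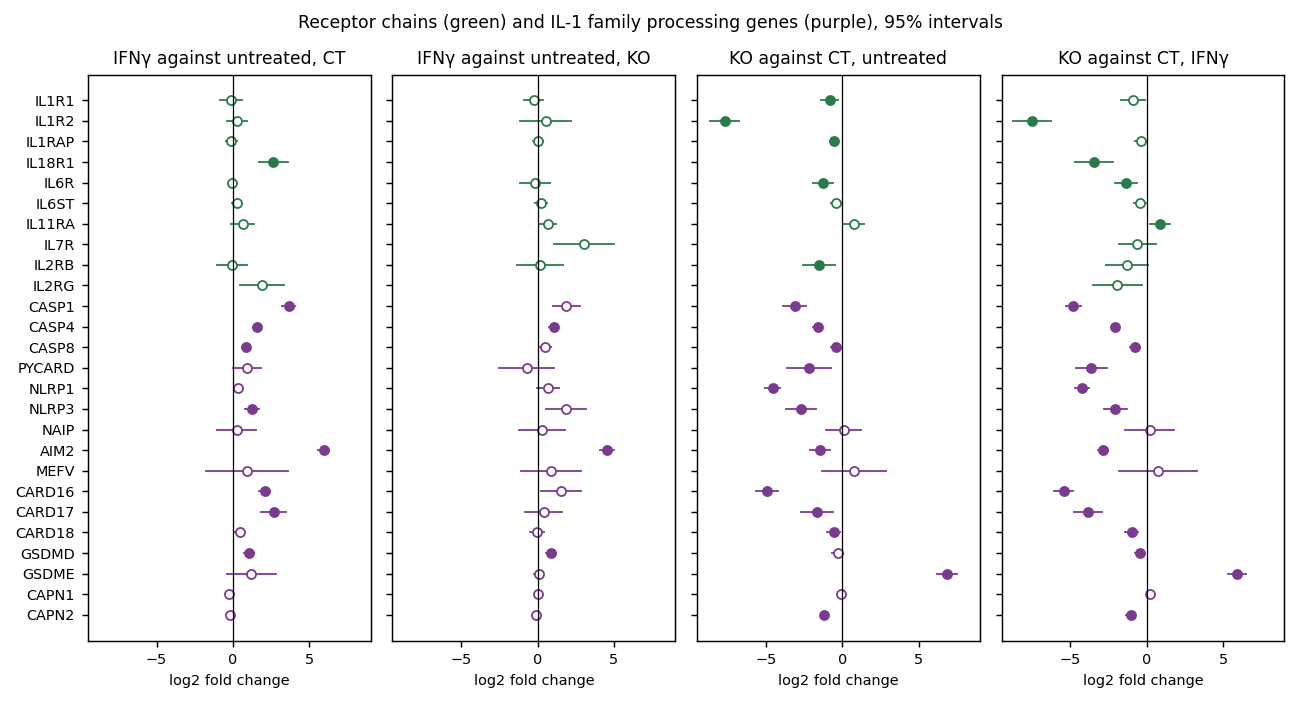
Fitted log2 fold change (horizontal axis) with its 95% interval for receptor chains of the interleukins (green) and genes that process IL-1 family ligands (purple) in the 4 comparisons. Filled points have an adjusted p under 0.05 in edgeR with 3 libraries a group, and genes with at most 3 counts in a whole group are left out, so that IL1R2 at -7.70 and -7.51 is the farthest to the left.

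Of 18 genes that signal below these receptors, 17 were tested. With IFNγ, 8 rose in HT1376 CT and 3 in HT1376 FOXP3 KO, beside 3.53% and 0.978% of all genes, and 0 fell. DESeq2 called 8 and 4 higher, beside 1132 and 331 of all genes. In HT1376 FOXP3 KO 6 were higher at an unadjusted p under 0.05, beside 1295 of all genes in either direction. The feedback inhibitor SOCS1 rose by a log2 fold change of 2.02 ± 0.26 in HT1376 CT and of 2.22 ± 0.27 in HT1376 FOXP3 KO, SOCS3 by 1.72 ± 0.22 in HT1376 CT, and STAT3 by 0.79 ± 0.10 in HT1376 CT (adjusted p 0.000701) and 0.64 ± 0.12 in HT1376 FOXP3 KO. Between the lines 8 were lower and 2 higher in the knockout line, both untreated and with IFNγ, IRAK2 (-1.93 and -2.68) and STAT5A (-1.90 and -2.13) being lower and IRAK4 (1.38, untreated) higher. Of all genes 18.2% were lower and 14.0% higher untreated, and 15.7% and 13.2% with IFNγ.

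Other interleukin ligands of the gene list were rarely expressed. Of 41, 12 had no count in any library and 19 had at least 10 counts in all. By edgeR, 0 of 19 were called with IFNγ in HT1376 CT. At an unadjusted p under 0.05, 5 were higher and 1 lower, beside 4316 of all 24416 genes in either direction. DESeq2 called 2 higher, beside 1132 of all genes. In HT1376 FOXP3 KO edgeR called 0 of 15, with 0 at an unadjusted p under 0.05 and 0 by DESeq2. In untreated HT1376 FOXP3 KO 7 of 18 were lower and 1 higher, beside 18.2% and 14.0% of all genes, and with IFNγ 7 of 17 were lower and 0 higher, beside 15.7% and 13.2%. LIF, a gp130 ligand, averaged 42.6 CPM in untreated HT1376 CT and 0.395 CPM in untreated HT1376 FOXP3 KO (log2 fold change -6.68 ± 0.46, adjusted p 1.68e-06). IL24 went from 127 to 4.01 CPM between these lines (-4.96 ± 0.46, adjusted p 1.40e-05) and IL23A from 2.82 to 0.151 CPM (-4.18 ± 0.69, adjusted p 0.000830). With IFNγ their log2 fold changes were -7.21, -5.07 and -3.64.

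Of 31 other interleukin receptor chains, 4 of 24 tested rose with IFNγ in HT1376 CT and 2 of 22 in HT1376 FOXP3 KO, beside 3.53% and 0.978% of all genes, with 0 lower. IL12RB1 rose in both (4.15 ± 0.38 and 4.80 ± 0.28). IL12RB2 averaged 0.0613 CPM in untreated HT1376 CT and 4.05 CPM in untreated HT1376 FOXP3 KO. LIFR, the receptor chain for LIF, was higher in the knockout line by a log2 fold change of 4.42 ± 0.38 untreated (4.79 to 105 CPM, adjusted p 8.62e-06), the opposite direction to its ligand. Between the lines 5 of 23 were higher and 5 lower untreated, beside 14.0% and 18.2% of all genes. With IFNγ 6 of 23 were higher and 4 lower, beside 13.2% and 15.7%. Median log2 fold changes of the list were -0.07 untreated and -0.13 with IFNγ, beside -0.02 and 0.02 over all genes.

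The genes most like each member over the 12 libraries were taken by Pearson r of log2 CPM among 15677 genes, as a description over points that share groups. IL32 was most like IRF2 (r 0.993), IL15RA like the MHC class II activator CIITA (0.990) and BST2 (0.989), and IL15 like TNFRSF14 (0.985). UBD (0.983) was among the 3 genes most like IL7, and RDM1 (0.923) among those most like IL1B. IL18BP was most like GSDMB (0.95), IL18 like MMRN2 (0.984), IL1A like C15orf48 (0.921), IL11 like BACE1 (0.935) and IL6 like RNF126 (0.889).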

How the data were processed

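RNA-seq was performed on HT1376 CT and HT1376 FOXP3 KO cells, untreated or with IFNγ. The authors aligned reads with STAR 2.7.11a (version from the submitters' processing notes) to GRCh38 with Ensembl 103, removed Mycoplasma sequences with Kraken and deposited raw htseq-count counts per gene. The strand setting and the treatment of multi-mapping reads are not given in the sources used here. Positions and exonic bases come from GENCODE 44 on GRCh38, promoter windows from RefSeq. Rows without a symbol held 0.110% of counts. They were kept in library sizes and tests because each carries a gene identifier.

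For each pair of groups (6 libraries), genes with 10 or more counts in all were tested in edgeR 4.0.16 (R 4.3.3) by quasi-likelihood after TMM scaling, and called at a Benjamini-Hochberg adjusted p under 0.05. The interaction was fitted over 12 libraries. Intervals are 95%, and counting intervals (exact, binomial) and the floor of 3 counts cover counting error only. The fits were tested on simulated counts. Alternatives were DESeq2 1.42.0, its size factors, other filters, another deviance, a replicate block, all libraries in 1 fit and leaving out each library. The block within each line with the bias-adjusted deviance was added after seeing the data.

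Same-numbered libraries deviated together within a line (r across genes over the group means 0.139 to 0.152 in HT1376 CT and 0.179 to 0.266 in HT1376 FOXP3 KO, over genes with at least 10 counts, and 0.320 to 0.382 and 0.428 to 0.564 over genes with a mean CPM of at least 1), so numbers were taken to pair libraries for IFNγ effects. Between the lines r was 0.0472 to 0.136 over the first set of genes and 0.126 to 0.338 over the second. Differently numbered libraries reached 0.0535 untreated and 0.07025 with IFNγ over the first set, and 0.125 and 0.161 over the second. Untreated, same-numbered and other libraries overlapped in r over the first set only, so the pairing depends on the set. With IFNγ they overlapped over both sets. Blocked values are given for the members where they change a call, and the other gene lists are given without a block.

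All 10 members, their receptor chains and CASP1, CASP4 and CASP8 are named in the text, with up to 3 genes of each other list and comparison by size of the called change, and the genes most correlated with each member. Members and lists were chosen with earlier results of these data known. Some genes that this rule names are not reported here.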

Additional observations from a re-analysis of the deposited data

Results flagged for a closer look

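Among the interleukin genes, 2 differed between the lines in their IFNγ effect when the replicate number was a block within each line, under either deviance. That block called 2.06% of all genes lower, and 1.47% with the bias-adjusted deviance, a fit added after seeing the data. The difference of log2 fold changes, HT1376 FOXP3 KO minus HT1376 CT, was -1.36 for IL18BP (edgeR, adjusted p 0.000202) and -1.27 for IL32 (adjusted p 0.0131) with the bias-adjusted deviance. Without the block the adjusted p-values were 0.248 and 0.818. For IL32 that difference without a block, -1.29, was -0.50 without HT1376 FOXP3 KO untreated replicate 13 and -1.81 without untreated replicate 11 of the same line. In each line and for both genes, IFNγ libraries were higher than the untreated library of the same number in 3 of 3 numbers.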

How the results depend on the processing

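The IFNγ calls in HT1376 CT and the line differences of IL18 and IL32 kept their direction and their side of the threshold under each alternative that tested them. IL7 was left out by the filter of 10 counts in 3 libraries. Of the alternatives to the members' fold changes, 633 gave the same call, 43 passed a threshold the main test missed, 16 lost a call and 20 changed sign, the latter among differences with no call. For the counts and ratios, 222 alternatives stayed within 1.5 times or kept their sign and 16 moved. The cause of the changes was not tested.

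Members higher under IFNγ in HT1376 FOXP3 KO than in HT1376 CT numbered 2 without a filter, under the bias-adjusted deviance and when the replicate block was added to it, against 1. Members lower by the interaction numbered 2 without a filter, 1 with DESeq2, 2 with the replicate block, 2 with that block and the bias-adjusted deviance, 3 with the block within each line and 2 with that block and the bias-adjusted deviance, against 0. With the replicate block, members higher with IFNγ numbered 6 in HT1376 CT and 4 in HT1376 FOXP3 KO. Between the lines, where the evidence for pairing depends on the genes used, the block gave 3 higher and 3 lower untreated. Over all 25320 genes it called 4036 higher and 5222 lower there. With IFNγ the block gave 1 higher and 6 lower, beside 3914 and 4373 of all 24388 genes. There neither set of genes separated same-numbered from other libraries. The block changed no other call of the members. Over all genes the block within each line called 748 higher and 572 lower by the interaction (458 and 409 with the bias-adjusted deviance), against 1 and 30. No filter gave 143 and 151, and DESeq2 50 and 110. The replicate block also moved the IFNγ counts over all genes from 862 higher and 445 lower to 2118 and 2412 in HT1376 CT, and from 236 and 1 to 947 and 387 in HT1376 FOXP3 KO. Without a filter 982 genes were lower in HT1376 CT. DESeq2 called 11 lower in HT1376 FOXP3 KO, and no filter 12. With a library left out, 578 to 793 were higher and 183 to 408 lower in HT1376 CT.

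Leaving out a library, the count of members higher with IFNγ in HT1376 FOXP3 KO ran from 1 to 2, of those lower in the untreated knockout line from 1 to 2, and of those higher in the knockout line under IFNγ from 1 to 2. Between the lines, IL18BP was also called lower under IFNγ without replicate 12 of HT1376 CT (adjusted p 0.0452) or of HT1376 FOXP3 KO (0.00796). IL15RA was called lower without the latter (0.0139). Untreated, IL18BP was called higher in the knockout line without HT1376 CT replicate 12 (0.0475) or HT1376 FOXP3 KO replicate 13 (0.0495). IL1A was called lower there without HT1376 CT replicate 11 (0.00642). Signs changed for IL1B with IFNγ in HT1376 CT (-1.37 to 0.07), IL6 in HT1376 CT (-4.58 to 1.49), IL1A in HT1376 FOXP3 KO (-0.24 to 0.27), IL15RA between untreated lines (-0.08 to 0.56) and the interactions of IL1B (-1.27 to 0.88), IL6 (-3.16 to 3.72) and IL15 (-0.20 to 0.60). IL6 was -0.31 in HT1376 CT and 0.07 in the interaction with the replicate block. The IL1B interaction was 0.18 with the bias-adjusted deviance and 0.11 with it and either block. IL6, IL7, IL11 and IL1B had at most a few counts in several libraries, which limits what can be seen of them.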
